A study of Mus musculus with 16 samples.

Results

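The circadian clock genes of the mouse left ventricle were examined through 10 genes: Arntl (also called Bmal1), Npas2, Clock, Per1, Per2, Per3, Nr1d1, Nr1d2, Dbp and Ciart. They were found by gene symbol among the 53764 Ensembl genes of the deposited count table, each matched exactly 1 gene, and all 10 passed the filter on low counts. The hearts came from male C57BL/6J mice that were 8 weeks old when they began 4 months on a diet. Of the 4 groups, 1 ate a low-fat control diet (CD), 1 the same diet with ertugliflozin, an inhibitor of the sodium-glucose cotransporter SGLT2 mixed into the food at 0.5 mg/g, 1 a high-fat, high-sucrose diet (HFHS), and 1 HFHS with the drug. Each group gave 4 bulk poly(A)-selected RNA libraries. The animals were taken from 12 per group, no genetic change is stated, and no hour of tissue collection is given in the labels used here.

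The clock is a feedback loop of transcription. ARNTL pairs with CLOCK, or with its relative NPAS2, and the pair switches on genes that carry E-box sequences, among them the Per genes, Nr1d1, Nr1d2, Dbp and Ciart. PER proteins then hold the pair in check, the receptors REV-ERBα (Nr1d1) and REV-ERBβ (Nr1d2) repress Arntl, Npas2 and Clock, and DBP passes the rhythm on to D-box genes. In a rhythmic tissue such as the heart the activators therefore peak at another phase of the day than the repressors and outputs. A bulk library from 1 animal samples that cycle at a single moment.

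The clock genes did not differ between the diet and drug groups past the threshold, and they varied strongly between animals of the same group. In each of 7 comparisons, 0 of the 10 passed. Dbp nonetheless spanned 8.6-fold over the 16 hearts, and every group held hearts of high and of low Dbp. The variation ran along a common axis on which Arntl, Npas2 and Clock were high where Per2, Per3, Nr1d2, Dbp and Ciart were low.

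In the RefSeq promoter table, 9 of the 10 genes were matched, with 13 promoters among them. The 250 bases before each start were searched on both strands for the E-box CACGTG, its variant CACGTT, the D-box as TTATGTAA or TTACGTAA, and the REV-ERB and ROR element as TAGGTCA or TGGGTCA. The E-box was in 2 of the 13 promoters, each of another gene, and in 6.02% of all 32851 promoters in the table. The variant was in 1 of 13 (3.85% of all promoters) and the D-box in 1 of 13 (0.931%). The last element was in 0 of 13 (5.38%). A match is a run of letters and not a measured site. The 4 promoters with a match are shown to place the motifs in genes whose levels are given below. They are printed 5′ to 3′ on the gene's own strand, with matches in capitals (build GRCm38.p6).
Ciart, chr3:95882229-95882478, minus strand, 3 E-boxes: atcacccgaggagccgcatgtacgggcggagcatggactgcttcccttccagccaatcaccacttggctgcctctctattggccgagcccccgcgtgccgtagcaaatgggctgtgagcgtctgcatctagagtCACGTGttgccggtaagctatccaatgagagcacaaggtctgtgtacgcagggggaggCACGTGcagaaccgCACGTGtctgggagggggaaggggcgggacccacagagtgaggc
Per1, chr11:69098699-69098948, plus strand, 1 E-box: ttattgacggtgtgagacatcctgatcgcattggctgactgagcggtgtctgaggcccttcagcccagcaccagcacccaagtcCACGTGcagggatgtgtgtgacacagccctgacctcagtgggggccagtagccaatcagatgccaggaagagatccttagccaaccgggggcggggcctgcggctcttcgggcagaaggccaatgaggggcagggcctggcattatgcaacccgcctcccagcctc
Per3, chr4:151044666-151044915, minus strand, 2 D-boxes: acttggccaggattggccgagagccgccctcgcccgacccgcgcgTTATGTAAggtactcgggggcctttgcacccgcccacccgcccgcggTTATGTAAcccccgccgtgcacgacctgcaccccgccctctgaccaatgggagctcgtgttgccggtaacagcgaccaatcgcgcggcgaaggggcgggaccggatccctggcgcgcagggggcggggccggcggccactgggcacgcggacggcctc
Nr1d1, chr11:98775378-98775627, minus strand, 1 E-box variant read on its other strand: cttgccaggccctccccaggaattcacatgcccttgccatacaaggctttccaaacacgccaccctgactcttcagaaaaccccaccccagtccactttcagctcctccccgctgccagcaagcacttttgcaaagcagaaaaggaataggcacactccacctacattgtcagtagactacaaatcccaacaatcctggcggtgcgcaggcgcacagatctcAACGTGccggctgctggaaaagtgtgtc

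The E-boxes of Ciart began 116, 58 and 44 bases before the start, and that of Per1 began 166 bases before it. The D-boxes of Per3 began 205 and 158 bases before the start, and the variant of Nr1d1 began 28 bases before it. A second Per1 promoter in the table held none of these motifs.

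Among the activators, Arntl (ENSMUSG00000055116; GRCm38 chromosome 7, 113207465 to 113314126) stood at 29.8, 34.0, 33.7 and 16.2 CPM (read counts scaled by library size) in the 4 untreated CD hearts. With ertugliflozin on CD it stood at 39.7, 9.87, 17.2 and 19.8. In untreated HFHS hearts the values were 24.7, 37.0, 18.7 and 38.3, and with the drug on HFHS 24.03, 31.4, 10.3 and 22.4. The drug-treated CD hearts alone spanned 4.02-fold and covered the range of the other groups.

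Npas2 (ENSMUSG00000026077; chromosome 1, 39193731 to 39363236), which can take the place of Clock, gave 6.47, 7.63, 7.81 and 3.74 CPM in untreated CD hearts and 8.92, 2.11, 4.08 and 5.31 with the drug. On HFHS it gave 7.58, 9.76, 4.14 and 12.2 without and 6.05, 8.60, 2.17 and 5.46 with the drug. Its 2 lowest hearts were the same as those of Arntl, replicate 2 of CD with ertugliflozin and replicate 3 of HFHS with ertugliflozin. Clock (ENSMUSG00000029238; chromosome 5, 76209868 to 76304792), the partner of Arntl, was the flattest of the 10 genes. It ranged from 85.6 to 121 CPM, a 1.42-fold span.

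Among the repressors, Per2 (ENSMUSG00000055866; chromosome 1, 91415982 to 91459324) stood at 10.2, 10.9, 11.4 and 17.5 CPM in untreated CD hearts and at 3.65, 29.8, 11.9 and 16.8 with the drug. On HFHS it stood at 10.8, 5.87, 13.4 and 4.78 without and 8.26, 6.75, 20.4 and 12.3 with the drug. Both the lowest and the highest of the 16 hearts lay in the drug-treated CD group, replicates 1 and 2. Per3 (ENSMUSG00000028957; chromosome 4, 151003652 to 151044665) had its lowest and highest values, 12.0 and 47.3 CPM, in the same hearts.

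Per1 (ENSMUSG00000020893; chromosome 11, 69095217 to 69109960), the Period gene known for a rapid response to hormonal and stress signals, was ordered differently. It stood at 26.8, 35.9, 35.2 and 44.6 CPM in untreated CD hearts and at 14.2, 78.4, 23.9 and 18.4 with the drug. The HFHS values were 35.5, 23.3, 27.1 and 33.1 without and 57.6, 33.6, 53.1 and 39.0 with the drug. Replicate 2 of CD with ertugliflozin was the highest of all hearts, and 2 others of its group were the lowest.

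Nr1d1 (ENSMUSG00000020889; chromosome 11, 98767932 to 98775333) stood at 90.3, 62.7, 62.8 and 151 CPM in untreated CD hearts and at 78.4, 124, 159 and 77.1 with the drug. On HFHS it stood at 74.8, 67.8, 166 and 75.8 without and 115, 86.8, 153 and 114 with the drug. In the untreated HFHS group 1 heart, replicate 3, lay far above the rest. Nr1d2 (ENSMUSG00000021775; chromosome 14, 18204054 to 18239127) ranged from 95.8 to 236 CPM, a 2.46-fold span. Nr1d1 shares 263 exonic bases with Thra on the opposite strand. For the counting no strand setting is given in the sources used here, so how reads there were assigned is not known.

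Among the outputs, Dbp (ENSMUSG00000059824; chromosome 7, 45705088 to 45710203), a transcription factor of the D-box, stood at 27.1, 14.61, 13.7 and 104 CPM in untreated CD hearts and at 13.6, 109, 87.2 and 41.3 with the drug. On HFHS it stood at 34.9, 14.0, 84.4 and 12.8 without and 44.5, 18.6, 110 and 46.1 with the drug. Every group held at least 1 heart above 80 CPM and at least 1 below 20 CPM. Dbp overlaps Sphk2 on the opposite strand over 539 exonic bases. Ciart (ENSMUSG00000038550; chromosome 3, 95878503 to 95882251), which encodes a repressor of CLOCK and ARNTL, was the least abundant, with 1.18 to 9.21 CPM and 21 to 165 reads per library. The plot of clock gene levels by group shows the overlap of the groups for every gene.

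**Figure D1:**
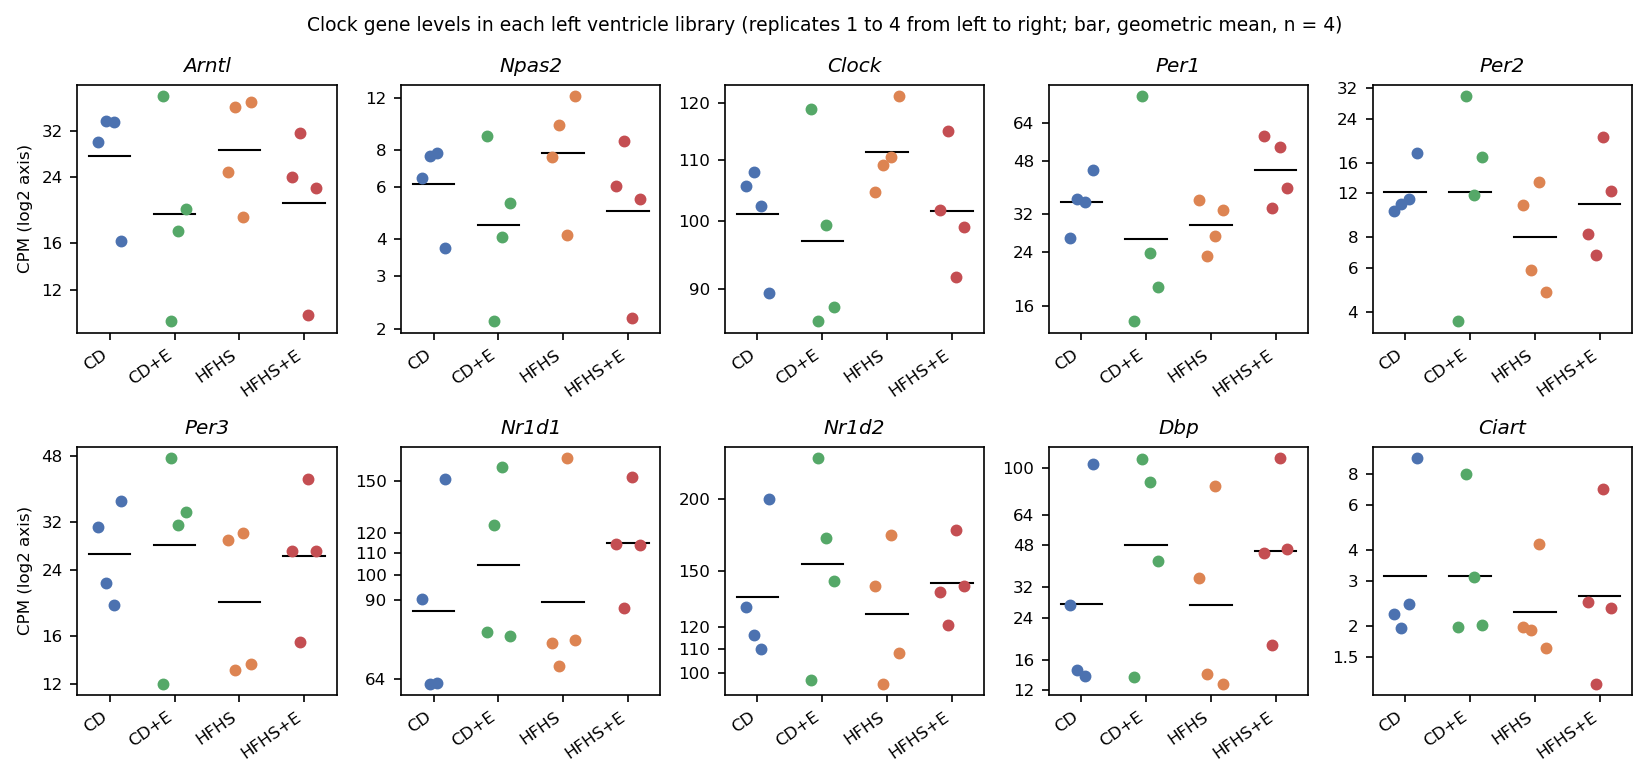
Level of each of the 10 clock genes (CPM, log2 axis) in the 16 left ventricle libraries, by group (CD and HFHS, +E with ertugliflozin; points, replicates 1 to 4 from left to right; bars, geometric mean, n = 4). For Dbp every group holds at least 1 heart above 80 CPM and at least 1 below 20 CPM.

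Per exon length (RPKM), the order of the median levels over the 16 hearts was Nr1d1 at 28.8, Nr1d2 at 25.8, Dbp at 12.7, Clock at 7.54, Per1 at 6.10, Arntl at 3.24, Per3 at 2.89, Per2 at 1.90, Npas2 at 1.31 and Ciart at 1.01. The order between neighbours was not fixed within hearts. Dbp exceeded Clock in 10 of 16 hearts and Arntl exceeded Per3 in 10 of 16, whereas Nr1d2 exceeded Dbp in 15 of 16. In the other neighbouring pairs the gene with the higher median was higher in 11 to 15 of 16 hearts.

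The spread between animals of a group was large for genes of this abundance. The within-group SD of log2 CPM was 1.26 for Dbp, 0.90 for Ciart, 0.82 for Per2, 0.72 for Npas2, 0.65 for Per3, 0.64 for Arntl, 0.61 for Per1, 0.52 for Nr1d1, 0.40 for Nr1d2 and 0.15 for Clock. The median over all 15841 genes tested was 0.14. Among the 500 genes nearest in level, 9 of the clock genes lay between the 98.8th and the 99.8th percentile of this SD, and Clock lay at the 89.4th. Differences between the group means made up 5.8% (Ciart) to 23.8% (Clock) of a clock gene's variance, beside a median of 25.2% over all genes. Means of so few hearts also differ by chance, and these shares were not adjusted for that. They therefore do not measure an effect of diet or drug.

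Whether the genes varied together was tested on log2 CPM after subtraction of each group's mean, for the 45 pairs over 16 hearts. All 3 pairs of activators were positively correlated (Pearson r 0.77 to 0.98). All 21 pairs within the Per, Nr1d, Dbp and Ciart genes were positive (0.35 to 0.96), and all 21 pairs of an activator with one of these genes were negative (-0.95 to -0.43). By a two-sided permutation test with Benjamini-Hochberg adjustment over the 45 pairs, 43 passed at 0.05 (40 by Spearman's rho). The exceptions for Pearson's r were Clock with Nr1d1 (r = -0.43, permutation adjusted p = 0.0941) and Per1 with Nr1d1 (r = 0.35, permutation adjusted p = 0.191). Deviations of 4 hearts from their own mean sum to 0, so these permutation p-values are approximate and tend to be too small. The signs do not come from a comparison of groups, since group means were removed.

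The closest pair was Arntl with Npas2 (r = 0.98, rho = 0.98, permutation p = 1e-05 for each test, the smallest that the 100000 resamples can give). Arntl against Dbp gave r = -0.94 (rho = -0.94), against Nr1d2 r = -0.95 (rho = -0.92) and against Per2 r = -0.93 (rho = -0.94). Their permutation adjusted p was 3.21e-05 each. Dbp with Nr1d2 gave r = 0.96 (rho = 0.95). Without the 2 hearts farthest from the median of the first gene of a pair, 0 of 45 pairs changed sign, and r spanned -0.97 to 0.97. The 5 hearts with Dbp above 80 CPM were the 5 with the lowest Arntl, and the 6 hearts with Dbp below 20 CPM were the 6 with the highest Arntl. In the plot of clock genes against each other the hearts of the 4 groups intermingle.

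**Figure D2:**
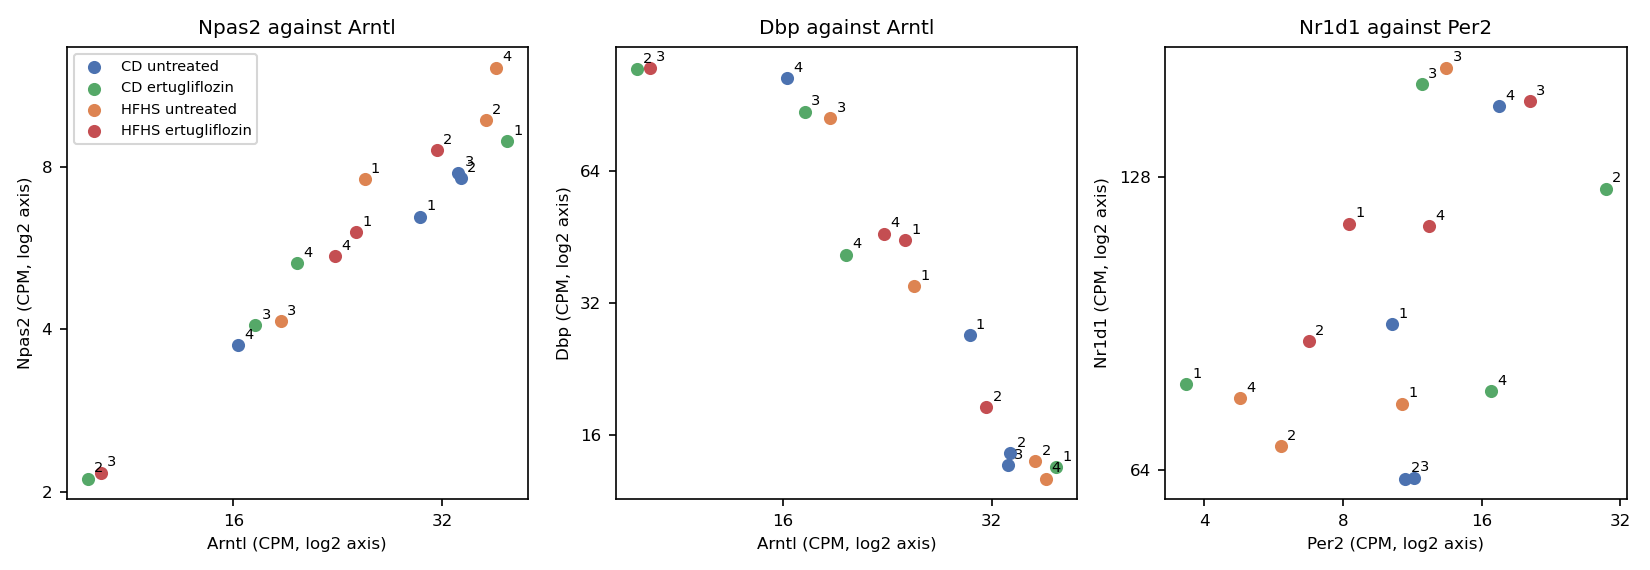
Npas2 against Arntl, Dbp against Arntl and Nr1d1 against Per2 (CPM, log2 axes) in the 16 hearts, coloured by group and numbered by replicate, without removal of group means. The 5 hearts with Dbp above 80 CPM, which come from all 4 groups, hold the 5 lowest Arntl values.

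Within single groups the same signs held for all 45 pairs in untreated CD hearts, in CD hearts with ertugliflozin and in HFHS hearts with ertugliflozin. In untreated HFHS hearts 19 of 21 pairs within the repressors and outputs were positive and 19 of 21 opposite pairs were negative. Every exception there was a pair with Per1, namely with Npas2 (r = 0.178), Clock (0.113), Nr1d1 (-0.165) and Ciart (-0.315). Each group has only 4 hearts, so these counts are descriptions.

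**Figure D3:**
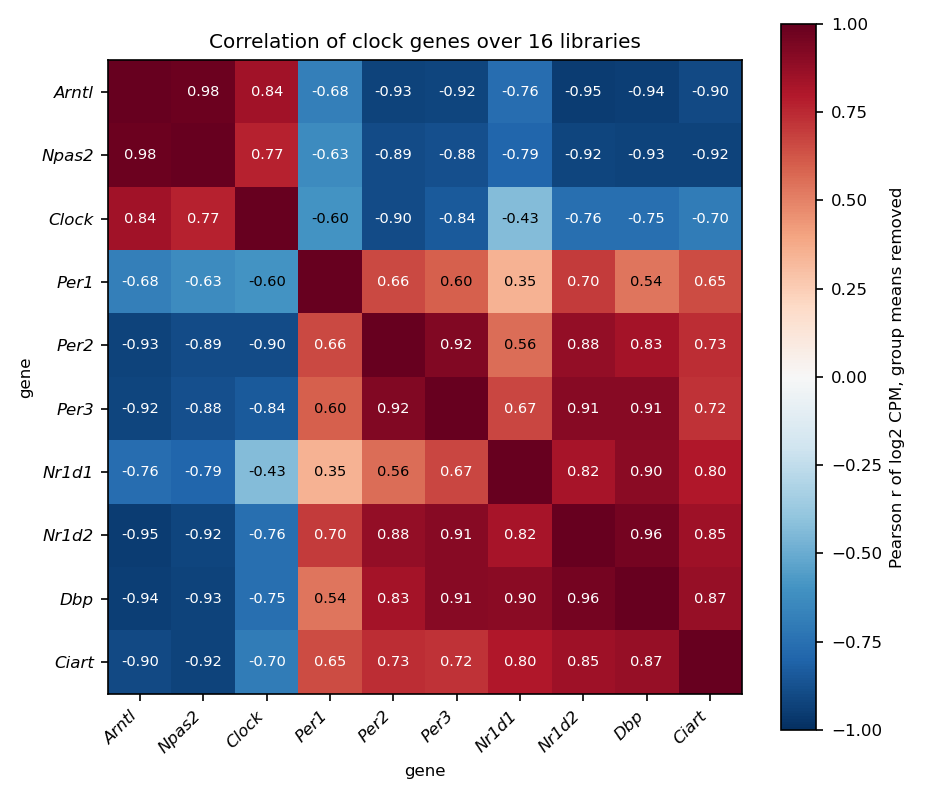
Pearson r of log2 CPM for each pair of the 10 clock genes over 16 hearts after removal of group means. Arntl, Npas2 and Clock form a positive block (0.77 to 0.98), the other 7 genes another (0.35 to 0.96), and the pairs between the blocks are all negative (-0.95 to -0.43).

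A principal component analysis of the 10 centred and scaled genes put 81.7% of the variance on the first component, which had Arntl, Npas2 and Clock on one side and the other genes on the opposite side. The second component held 8.5% and set Nr1d1 (loading 0.64) and Clock (0.40) against Per1 (-0.48) and Per2 (-0.29). Replicate 3 of CD with ertugliflozin and replicate 3 of untreated HFHS had the highest Nr1d1 levels, 159 and 166 CPM, with Per2 at 11.9 and 13.4 CPM. Replicate 2 of CD with ertugliflozin had the highest Per2, 29.8 CPM, with Nr1d1 at 124 CPM. The hearts thus differed in the ratio of Nr1d1 to Per2 besides their place on the common axis.

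The first question of the design was the effect of the HFHS diet. Without drug 0 of 10 clock genes passed the edgeR test (adjusted p under 0.05 over all genes), where 2.06% of all genes did. With ertugliflozin in both diets 0 of 10 passed and 3.69% of all genes did. Averaged over both drug arms 0 of 10 passed, beside 11.6% of all genes. None of the 10 reached an unadjusted p under 0.05 in any of these comparisons. The clock genes' median log2 difference of HFHS from CD without drug was -0.12, with 4 above and 6 below 0, beside a median of -0.002 over all genes. Fewer cells of a type and less RNA per cell cannot be told apart in bulk tissue.

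The intervals show what the 4 hearts per group could resolve. For Clock, HFHS over CD without drug was 0.14 ± 0.09 on the log2 scale (SE; 95% interval -0.07 to 0.34, edgeR adjusted p = 0.506). For Arntl it was 0.07 ± 0.42 (-0.85 to 0.99, edgeR adjusted p = 0.954). Per2 gave -0.54 ± 0.56 (-1.76 to 0.68) and Dbp -0.14 ± 0.88 (-2.07 to 1.79). A several-fold difference in Dbp lies within its interval.

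The next question was the effect of ertugliflozin. On CD 0 of 10 clock genes passed the edgeR test (0.0189% of all genes, 3 genes), on HFHS 0 of 10 (0% of all genes) and over both diets 0 of 10 (0%). At an unadjusted p under 0.05 the count of clock genes was also 0 in each, while 978, 637 and 882 genes of the whole table reached it. DESeq2 and limma called 0 of the 10 as well. The drug effects on CD and on HFHS share no libraries, and the average over both diets rests on all of them.

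Averaged over both diets, the fitted differences of drug from no drug were below 0 for the 3 activators and above 0 for the other 7 genes, of which Per1 turned from 0.27 to -0.15 without replicate 2 of CD with ertugliflozin. Npas2 stood at -0.46 ± 0.32 on the log2 scale (SE; 95% interval -1.17 to 0.24), Arntl at -0.41 ± 0.30 (-1.07 to 0.25) and Clock at -0.09 ± 0.07 (-0.23 to 0.06). Dbp stood at 0.63 ± 0.61 (-0.71 to 1.97), Per2 at 0.39 ± 0.39 (-0.46 to 1.23) and Nr1d1 at 0.27 ± 0.27 (-0.31 to 0.85). The edgeR adjusted p-values were 0.882 to 0.983 over the 10 genes. The 10 genes vary together between hearts, so their directions are not separate observations. Each interval includes 0, and the difference between the groups is smaller than the spread within them.

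The drug effect on HFHS was then compared with that on CD as an interaction. Of the clock genes 0 of 10 passed (edgeR; 0.0189% of all genes did), and 0 of 10 had an unadjusted p under 0.05. Per1 had the largest fitted value, 0.71 ± 0.63 (95% interval -0.67 to 2.09, edgeR adjusted p = 1). In the 4 comparisons of 2 groups the values of 0 clock genes failed to overlap between the groups. Over all genes that share was 8.33% and 13.2% for diet without and with drug, and 3.07% and 2.85% for the drug on CD and on HFHS.

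**Figure D4:**
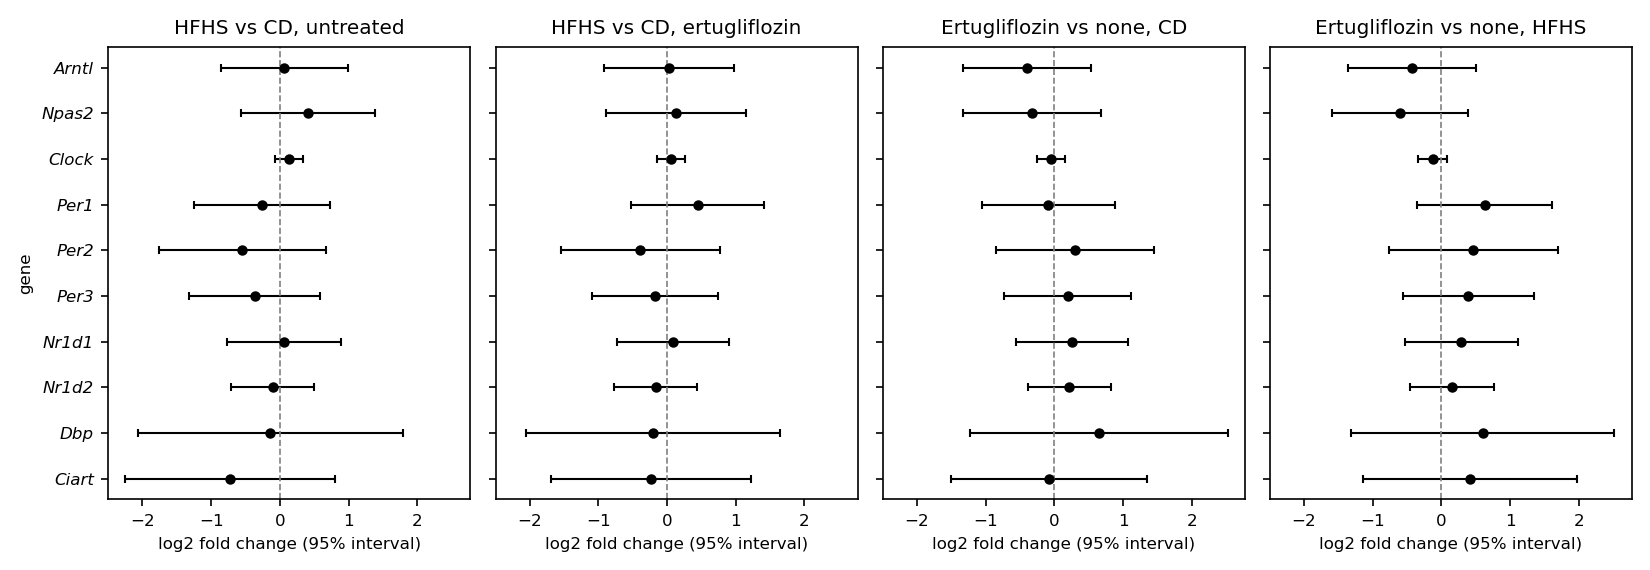
Fitted log2 differences between groups for the 10 clock genes (points) with 95% intervals (lines), edgeR over all 16 libraries, for the diet without and with drug and the drug on CD and on HFHS. Every interval includes 0; Clock has the narrowest and Dbp the widest.

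For Per1 the comparison of the diets with drug changed when 1 heart was left out. Of 1120 fold changes of clock genes with a single library left out, this was the only 1 to pass. With drug in both diets, Per1 on HFHS exceeded that on CD by 0.45 ± 0.44 on the log2 scale (SE; edgeR adjusted p = 0.646). Without replicate 2 of CD with ertugliflozin, the heart at 78.4 CPM, the difference was 1.28 ± 0.25 and passed (edgeR adjusted p = 0.0217, where 2.43% of all genes passed). The remaining 3 CD hearts with drug (14.2, 23.9 and 18.4 CPM) lay below all 4 HFHS hearts with drug (33.6 to 57.6 CPM). That separation exists only because the highest of the 16 hearts was left out, so it is no support for a diet difference. The same omission moved the drug effect on CD from -0.08 to -0.92 (edgeR adjusted p = 0.54) and the interaction from 0.71 to 1.55 (edgeR adjusted p = 0.458). In that heart Per2, Per3 and Nr1d2 were also the highest of the 16 and Arntl, Npas2 and Clock the lowest.

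The other genes of the loop were taken as a list of 20, all of them tested, and 0 of 20 passed in any of the 7 comparisons. Their variation between hearts was related to that of Dbp, a reference chosen after its values were seen, again with group means removed. The family comprised 93 relations, namely 84 genes of 5 lists, 8 cell type marker sums and the total count of a library. Of the 20 loop genes 6 were positively and 3 negatively correlated with Dbp (permutation test, adjusted over the 93). As for the pairs, these permutation p-values are approximate and tend to be too small, so calls near the threshold are the least certain. Positive were Cry2 (r = 0.95), Tef (0.91), Bhlhe41 (0.85), Hlf (0.83), Rora (0.61) and Bhlhe40 (0.60). Tef and Hlf encode the D-box factors most like DBP, Bhlhe40 and Bhlhe41 encode repressors at E-boxes, and Cry2 encodes a partner of the PER proteins. The negative ones included Nfil3 (-0.90), which encodes the repressor that competes for D-boxes, and Cry1 (-0.89), the other cryptochrome.

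Cry1 and Cry2 therefore lay on opposite sides of the axis in the same hearts. The casein kinase genes Csnk1d (r = 0.26) and Csnk1e (0.37), which act on PER proteins, did not pass (permutation adjusted p = 0.483 and 0.287). The lists were chosen with earlier results of these data known, so their counts and medians are not independent of these data. Of 20 genes taken as clock outputs 9 were positively and 6 negatively correlated with Dbp. They included Tspan4 (0.92), which encodes a tetraspanin, Usp2 (0.89), a deubiquitinase, and Klf9 (0.80) and Klf15 (0.71), Krüppel-like factors. On the negative side stood Leo1 (-0.78), of the PAF1 complex, and Lonrf3 (-0.76). The median absolute r with Dbp was 0.49 over the loop genes, 0.66 over the outputs, 0.60 over glucocorticoid response genes, 0.39 over immediate early genes and 0.28 over temperature response genes, beside 0.26 over all other genes tested.

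Of 15 glucocorticoid response genes 6 were positively correlated with Dbp, among them the metallothionein genes Mt1 (r = 0.85) and Mt2 (0.80), Zbtb16 (0.76) and Fkbp5 (0.72), and 2 negatively, Ddit4 (-0.64) and Errfi1 (-0.60). The other members, such as Tsc22d3 (0.03) and Sgk1 (-0.31), did not pass. Of 14 temperature response genes 1 passed, the chaperone gene Dnajb1 (-0.61), and of 15 immediate early genes 3 passed, Atf3 (-0.72), Jun (-0.71) and Btg2 (-0.60). In all, 36 of the 84 list genes passed. The permutation test was not run over all genes, so these counts have no share of all genes beside them. Without the 2 hearts farthest from the median of Dbp, replicate 4 of untreated CD and replicate 1 of CD with ertugliflozin, 21 passed. A slope on Dbp fitted to every other gene with edgeR called 198 of 15831 genes (1.25%). By that fit 6 of the 20 loop genes, 7 of the 20 outputs and 2 of the 15 glucocorticoid response genes passed, and 0 of the temperature response and immediate early genes.

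**Figure D5:**
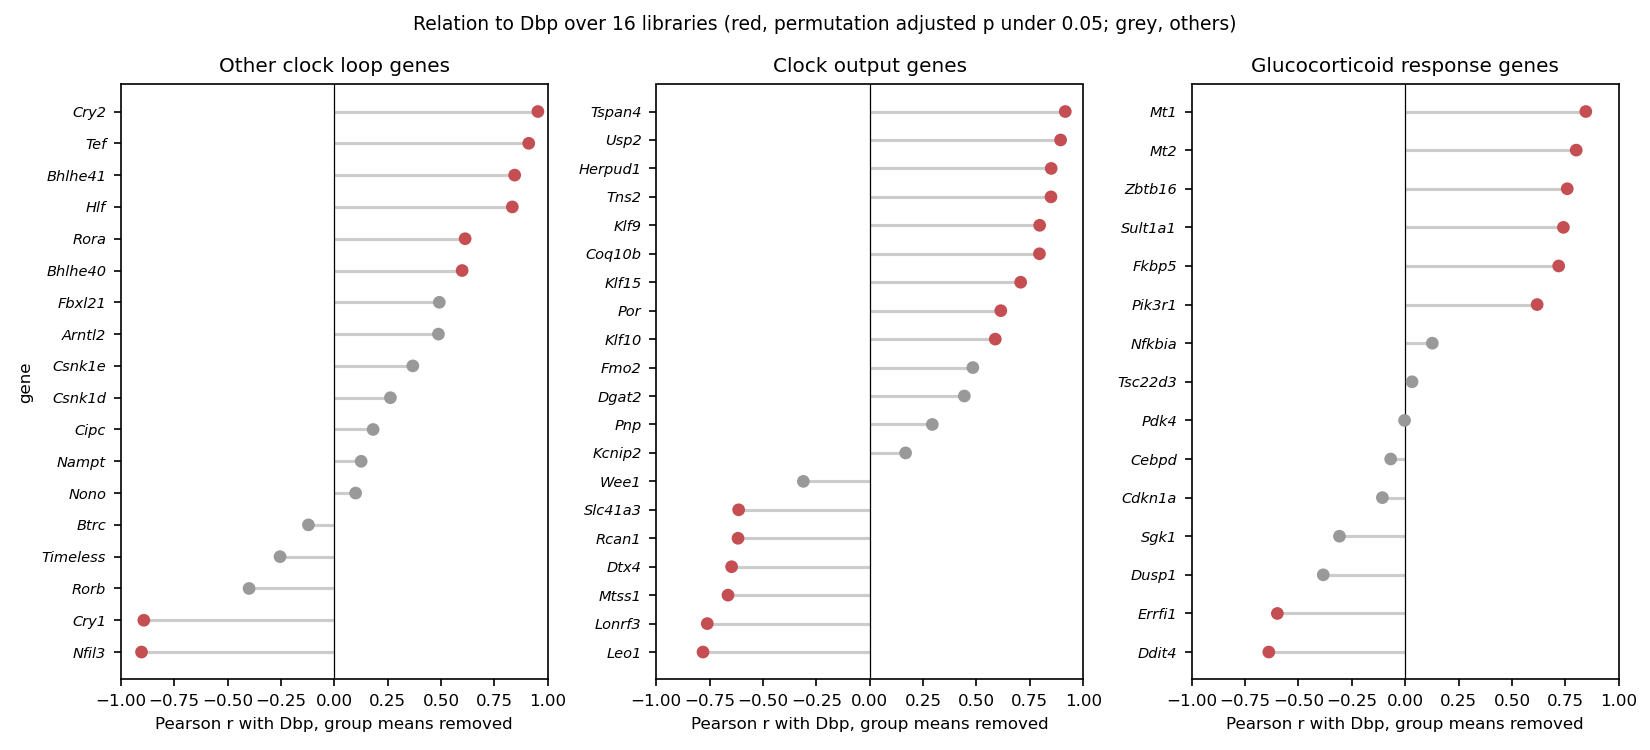
Pearson r with Dbp over 16 hearts, group means removed, for other clock loop genes, clock output genes and glucocorticoid response genes (some genes are not drawn; red, passed the permutation test adjusted over 93 relations; grey, others). The loop genes reach from -0.90 for Nfil3 to 0.95 for Cry2.

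The labelled tissue had its markers, since 10 of 10 ventricular cardiomyocyte genes were detected with a summed level of 74920 to 91900 CPM. Atrial markers summed to 1046 to 2342 CPM in untreated CD hearts and to at most 1143 CPM in the other groups. Valve and cartilage markers summed to 69.95 to 289.9 CPM in untreated CD hearts and to at most 101.1 CPM in the others. The part of such tissue in the group comparisons was not tested. The summed levels of 8 cell type marker lists showed no call with Dbp (r -0.23 to 0.32). Library totals, 14637669 to 21452212 counts, had r = -0.45 with Dbp (rho = -0.49, permutation p = 0.081, adjusted p = 0.167). Without the 2 farthest hearts that r was -0.59, and the part of sequencing depth in the correlations was not tested.

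The genes whose pattern was most like that of the clock genes were ranked by Pearson r with a score per heart, the mean of the 10 standardised genes with the sign of the 3 activators turned. Group means were removed from the score and from each gene before r was taken. Over 16 hearts and among 10387 genes of at least 5 CPM the 8 highest were Tef (0.96), Tspan4 (0.95), Ppl (0.94), Cyb561 (0.94), Cry2 (0.93), Serinc3 (0.92), Gpcpd1 (0.92) and Adamtsl4 (0.91). The 8 lowest were Adam19 (-0.93), Itgb6 (-0.92), Acsl3 (-0.91), Nfil3 (-0.90), Rab30 (-0.90), Col5a3 (-0.90), Shb (-0.89) and Spon2 (-0.89). These genes were picked as the extremes and have no test. Adam19, which encodes a membrane metalloprotease, ranged from 30.3 to 95 CPM, and Ppl, which encodes periplakin, from 6.72 to 25.8 CPM. Over all non-member genes the median absolute r with the score was 0.26, with 72 genes above 0.8 and 86 below -0.8.

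Genes of the same lists that differed between the diets did not follow Dbp. Kcnip2, the subunit of the transient outward potassium current known for its circadian rhythm in heart, was lower on HFHS than on CD, at a difference of -0.41 ± 0.09 with drug on the log2 scale (SE, edgeR adjusted p = 0.0105) and of -0.32 ± 0.06 over both drug arms (edgeR adjusted p = 0.00228). It was the only clock output gene of the 20 to pass in any comparison, and its r with Dbp was 0.17 (permutation adjusted p = 0.675). The mitochondrial chaperonin gene Hspe1 was also lower, at -0.31 ± 0.05 with drug (edgeR adjusted p = 0.00243), with r = 0.24. Pdk4, a pyruvate dehydrogenase kinase induced by glucocorticoids and fasting, was higher on HFHS over both drug arms by 1.11 ± 0.17 (edgeR adjusted p = 0.00141), with r = -0.003. For the diet without drug, Kcnip2 (-0.23, edgeR adjusted p = 0.178) and Hspe1 (-0.15, edgeR adjusted p = 0.138) did not pass. Pdk4 passed for the diet without drug (1.43 ± 0.24, edgeR adjusted p = 0.0106) and did not pass for the diet with drug (0.79, edgeR adjusted p = 0.0912). The interaction for Pdk4, -0.64 ± 0.34, did not pass. Cell type markers moved with the diet as well. Of 10 ventricular cardiomyocyte markers 5 were lower with drug and over both drug arms (medians -0.17 and -0.14 on the log2 scale), and of 12 endothelial markers 3 were higher over both arms (median 0.13). Their part in the differences of Kcnip2, Hspe1 and Pdk4 was not tested. Of the 1837 genes that passed for diet over both drug arms, 13 (0.708%) also had a slope on Dbp, which is 6.57% of the 198 genes with such a slope.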

How the data were processed

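The authors deposited whole read counts per Ensembl gene, not normalized, along with regularized log2 values, which entered 1 alternative only. Per the submitters' processing notes, STAR 2.6.0c, featureCounts of Subread 1.6.2, FastQC 0.11.7, DESeq2 1.22.1 and the mm10 build were used. For annotation, strand setting and multimapping reads nothing was given in the sources used here. Symbols and coordinates came from GENCODE M21 (GRCm38), which matched 53669 IDs and left 95 unmatched, and promoters from RefSeq.

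Counts were fitted in R 4.3.3 with edgeR 4.0.16: filterByExpr, TMM factors, a mean per group, robust quasi-likelihood, 15841 genes and Benjamini-Hochberg adjustment. SE is the log2 fold change over the square root of F. Correlations used log2 CPM (prior count 2) and 100000 permutations. Replicates are separate animals, so p-values measure the spread between animals. Library pairs within groups differed beyond sampling noise. Alternatives were other scalings and filters, DESeq2 1.42.0, limma 3.58.1, a replicate block, fits of the groups compared and omission of each library. The rule for named genes took the 10 members, of each further list up to 6 genes past the threshold in a comparison of groups, and the 8 genes most and least like a clock score. Members printed for a comparison, list genes named for their relation to Dbp and single hearts were picked after their values were seen. The scripts were tested on simulated data. The members and lists were chosen with earlier results of these data known. Some list genes are counted but not reported here by name.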

Additional observations from a re-analysis of the deposited data

Results flagged for a closer look

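In 6 of 40 sets of 4 hearts (10 genes in 4 groups), 1 heart lay far above the other 3 in CPM. For normally distributed values chance alone gives such a gap, above or below, in about 2 of 40 sets. On log2 CPM, tried after the data were seen, only 2 sets did, Nr1d1 in untreated HFHS and Ciart in untreated CD, so the number rests on the untransformed scale. Replicate 4 of untreated CD stood apart for Per2 (17.5 CPM, next 11.4), Dbp (104 CPM, next 27.1) and Ciart (9.21 CPM, next 2.45). Replicate 3 of untreated HFHS stood apart for Nr1d1 (166 CPM, next 75.8) and Ciart (4.21 CPM, next 1.98). Replicate 2 of CD with ertugliflozin stood apart for Per1 (78.4 CPM, next 23.9). The genes vary together, so these 6 are not separate observations.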

How the results depend on the processing

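The count of clock genes past the threshold was 0 in each of the 7 comparisons under other scalings and filters, DESeq2 and limma on 2 inputs. Fits of only the 2 groups compared, run for the 4 comparisons of 2 groups, also gave 0. Leaving out single libraries gave 0 to 1, the 1 being Per1 for diet with drug without CD ertugliflozin replicate 2. With the replicate number as a block the count was also 0 in each. The numbers were not taken as a pairing, since no label says that they mark a shared origin and not every same-numbered pair of hearts was positively correlated (-0.24 to 0.31 over all genes). Of 16 hearts 7 matched best with their own number, where 4 would if numbers carried nothing. Over 1720 alternative values of the 70 fold changes, 103 changed sign, 95 of them on leaving out a library. Of the values short of the threshold 15 moved by over 1 SE. The Per1 value that passed also moved by over 1 SE and is not among those 15. The number of correlated pairs was 43 under other scalings, another prior and the deposited log2 values, 41 without centring and 39 to 44 without single libraries, with 0 sign changes. In the comparisons where they are named above as past the threshold, Kcnip2, Pdk4 and Hspe1 passed under every alternative. These checks were added after the data were seen, and the edgeR or other adjusted p reached up to 0.0481. With 4 animals a group, a several-fold change of Dbp is within its error, and Ciart rests on as few as 21 reads.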

Other observations

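The log2 level of Dbp, with each group's mean removed, was added as a covariate to the edgeR fit, a choice made after the data were seen. Such a covariate holds only differences within groups, so the diet and drug effects were not adjusted for differences in Dbp between groups. The fit gave 422 genes for diet without drug in place of 327 (324 shared). For diet with drug it gave 743 in place of 584 (583 shared), and for diet over both drug arms 2077 in place of 1837 (1825 shared). For the drug it gave 4 genes on CD in place of 3, 1 on HFHS in place of 0 and 1 over both diets in place of 0. Of the 198 genes with a slope on Dbp, 89 were positive and 109 negative.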
